A study of Ovis aries with 22 samples.

Results

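The fibrillar collagen genes are the chains that build the banded collagen fibrils of the arterial wall, and 9 of them were followed here by symbol: COL1A1, COL1A2, COL3A1, COL5A1, COL5A2, COL5A3, COL11A1, COL24A1 and COL27A1. They are 9 of the 26200 gene symbols in the count tables, and all 9 were among the 14979 genes that passed the filter on low counts. The tissue was sinus wall of the great arteries of sheep (Ovis aries), profiled by RNA sequencing of bulk tissue. In the Ross procedure the pulmonary root is moved into the aortic position, where it is called the pulmonary autograft and carries aortic pressure. Autograft sinus came from 3 operated sheep 6 months after surgery. Native aortic sinus and native pulmonary sinus each came from the same 4 other sheep, named D3 to D6, described in the design text as not operated. Aortic sinus replicate 1, from animal D3, nevertheless carries the treatment label "Ross surgery". It was kept with the aortic sinus, and the counts of called genes, the changes of the 9 genes and of called genes from the lists, and the ratios were also computed without it and without animal D3. Breed, age and sex were not used, and the operated and native sinuses come from different animals, so surgery, position and animal cannot be told apart.

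Fibrils are laid down mainly by fibroblasts and smooth muscle cells. Procollagen chains are hydroxylated and folded into triple helices in the endoplasmic reticulum, exported, trimmed of their propeptides and assembled outside the cell, then crosslinked by lysyl oxidases. Type I collagen (COL1A1 and COL1A2) and type III collagen (COL3A1) make up the bulk of the arterial fibril. Type V collagen (COL5A1, COL5A2, COL5A3) and the related type XI collagen (COL11A1) are minor components that start fibrils and limit their diameter, and COL24A1 and COL27A1 are distant members of the family with a shorter, interrupted helix.

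Each of the 11 libraries was sequenced in 2 runs, which were added, and held 17380599 to 20741334 counts. Levels of a gene between libraries are given as CPM (counts scaled to library size, with TMM factors), a unit that is not corrected for gene length. The 9 smooth muscle markers measured, ACTA2 and MYH11 among them, were present in every library. Autograft replicate 1 stood apart, with the lowest summed smooth muscle markers (29501 CPM, against 53157 and 55112 CPM in the other autografts). Pulmonary replicate 2 had the lowest summed fibroblast markers of all libraries (2946 CPM).

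The 3 major chains were higher in the autograft than in native pulmonary sinus. COL1A1, COL1A2 and COL3A1 passed the test across all genes, as did the minor chain COL11A1, so that 4 of the 9 genes rose and none fell. Over all genes tested, 6.05% rose and 5.29% fell in this comparison (11.3% in either direction). The median log2 fold change of the 9 genes was 0.96, against 0.0013 over all genes tested.

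COL1A1 encodes the more abundant of the chains of type I collagen. It had 5057, 4537 and 3711 CPM in autograft sinus, against 2083, 2547, 1856 and 1596 CPM in aortic sinus and 1932, 1206, 1605 and 1895 CPM in pulmonary sinus. Every autograft library lay above every native library of either kind, and the native groups overlapped. Group means were 4435 ± 679 CPM in autograft (SD, n = 3), 2021 ± 404 CPM in aortic and 1660 ± 336 CPM in pulmonary sinus (SD, n = 4 each). The log2 fold change was 1.42 ± 0.21 (SE) over pulmonary sinus (adjusted p = 0.00713, edgeR quasi-likelihood test) and 1.13 ± 0.21 over aortic sinus (adjusted p = 0.0281). The call over pulmonary sinus held with each of the 11 libraries left out in turn (highest adjusted p = 0.0281). The call over aortic sinus held in 6 of those 11 fits and ended without autograft replicate 1 (adjusted p = 0.0544) or 2 (0.0835), and without aortic replicate 1 (0.0665), 3 (0.0924) or 4 (0.0634).

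COL1A2 encodes the partner chain of type I collagen. Its levels were 7256, 4888 and 5247 CPM in autograft sinus, 3363, 3715, 2920 and 2915 CPM in aortic sinus, and 3738, 1988, 2364 and 3812 CPM in pulmonary sinus. All 3 autografts were above all native libraries, and the pulmonary sinus fell into a higher pair (replicates 1 and 4) and a lower pair (replicates 2 and 3). The log2 fold change was 0.96 ± 0.24 over pulmonary sinus (adjusted p = 0.0323, edgeR), and 0.84 ± 0.24 over aortic sinus, where it missed the threshold (adjusted p = 0.0852). The call over pulmonary sinus ended without autograft replicate 1 (adjusted p = 0.0853) or 2 (0.0556), and without pulmonary replicate 2 (0.0733) or 3 (0.0899).

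COL3A1 encodes the single chain of type III collagen, the fibrillar collagen whose mutation in humans causes fragile arteries. It had 13597, 7739 and 6772 CPM in autograft sinus, against 4200, 4379, 3786 and 3993 CPM in aortic sinus and 5016, 2368, 2731 and 4937 CPM in pulmonary sinus. Autograft replicate 1 was far above the other autografts, which still exceeded every native library, and pulmonary replicates 1 and 4 were again the higher pair. Aortic sinus was the most even group (SD of 257 CPM around a mean of 4090 CPM), while the SD was 3693 CPM around 9369 CPM in autograft and 1410 CPM around 3763 CPM in pulmonary sinus. Its log2 fold change was 1.32 ± 0.30 over pulmonary sinus (adjusted p = 0.0243, edgeR) and 1.20 ± 0.30 over aortic sinus (adjusted p = 0.0642). Without autograft replicate 1 the change over pulmonary sinus was 0.94 on the log2 scale and no longer passed (adjusted p = 0.0648), and the call also ended without autograft replicate 2 (0.0505) and without pulmonary replicate 2 (0.0600) or 3 (0.0685).

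**Figure D1:**
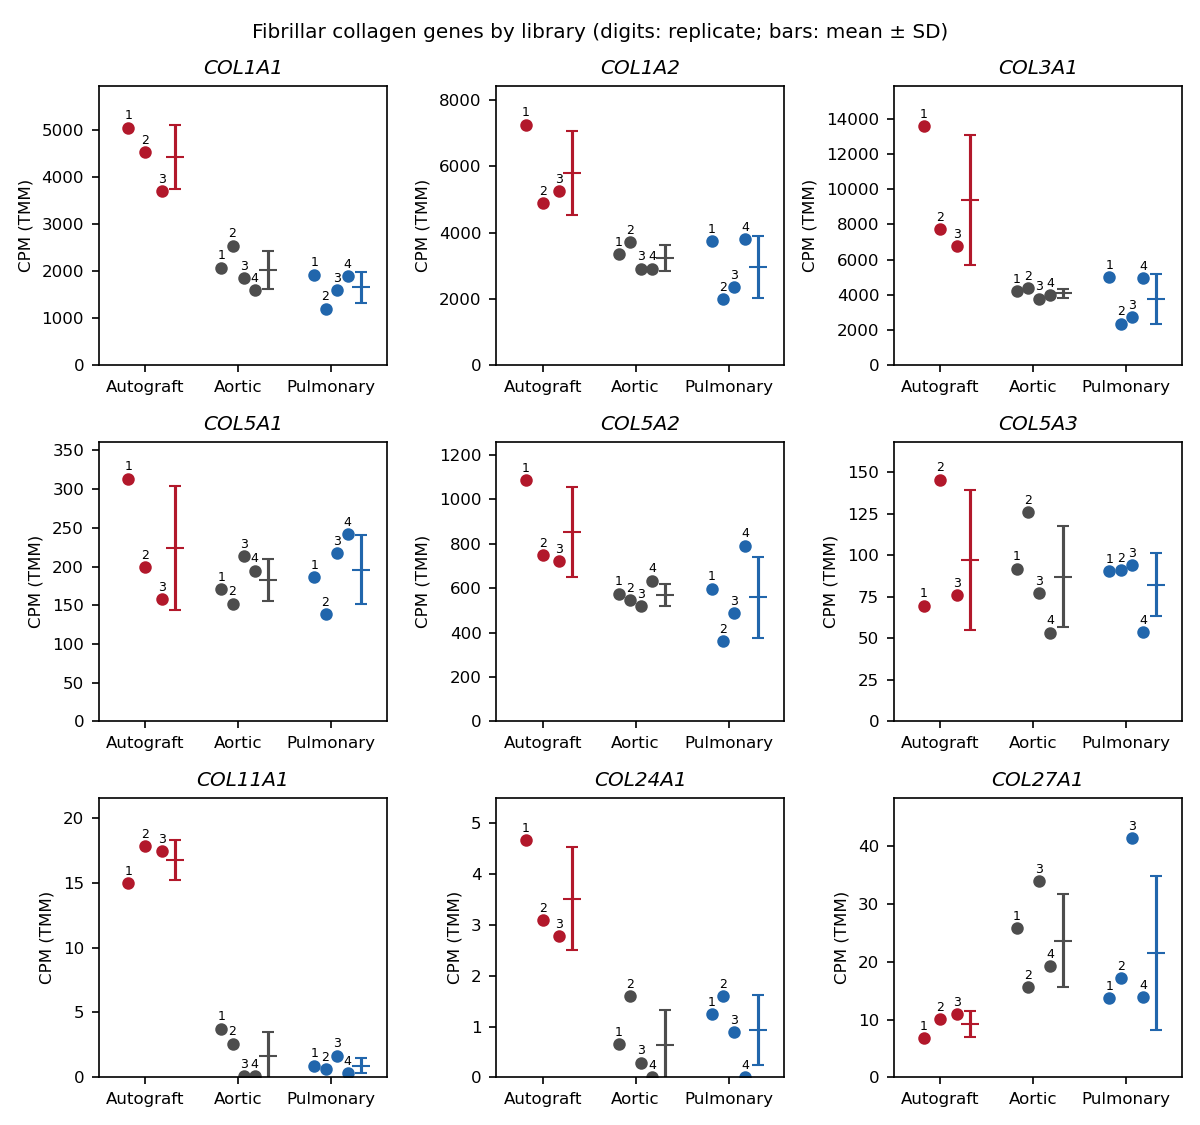
Level of each fibrillar collagen gene in every library, in CPM with TMM scaling on a linear axis from 0, for autograft (n = 3), aortic (n = 4) and pulmonary sinus (n = 4); points are libraries, digits replicate numbers, and bars the group mean ± SD, cut at 0. COL1A1, COL1A2, COL3A1, COL11A1 and COL24A1 lie above all native libraries in all 3 autografts, COL27A1 lies below them, and COL5A1 and COL5A3 overlap.

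Counted as a share of all reads assigned to genes, the 9 chains took 2.80%, 1.81% and 1.62% of the counts in the autografts. The share was 0.941% to 1.18% in aortic sinus and 0.606% to 1.16% in pulmonary sinus. At this depth the 95% interval of a share (Clopper-Pearson, counting error only) was narrow, 2.79% to 2.81% for autograft replicate 1, far narrower than the spread between animals. Nearly all of it came from the 3 major chains, with 1.96% ± 0.606 of counts in autograft (SD, n = 3), 0.939% ± 0.110 in aortic and 0.838% ± 0.262 in pulmonary sinus (SD, n = 4 each). The 6 minor chains together held 0.120% ± 0.0296 of counts in autograft, 0.0867% ± 0.00274 in aortic and 0.0860% ± 0.0200 in pulmonary sinus.

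No type V chain passed the test against either native tissue. COL5A1, the chain found in nearly all type V molecules and the one most often mutated in human classical Ehlers-Danlos syndrome, ranged over 158 to 313 CPM in autograft, 152 to 214 CPM in aortic and 139 to 241 CPM in pulmonary sinus. The groups overlapped, and the log2 fold change was 0.19 ± 0.24 over pulmonary (adjusted p = 0.624, edgeR) and 0.29 ± 0.24 over aortic sinus (adjusted p = 0.496). Without autograft replicate 1, which had the highest value of all libraries, the fold change was -0.14 over pulmonary and -0.025 over aortic sinus.

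COL5A2, the second type V chain, had 1086, 747 and 722 CPM in autograft sinus, 575, 544, 517 and 633 CPM in aortic sinus and 598, 362, 486 and 790.5 CPM in pulmonary sinus. All autografts exceeded all aortic libraries, but pulmonary replicate 4 lay inside the autograft range. In the fit the log2 fold change was 0.61 ± 0.24 over pulmonary sinus (adjusted p = 0.110, edgeR) and 0.59 ± 0.24 over aortic sinus (adjusted p = 0.173), and neither passed. Without pulmonary replicate 4 the gene was called (log2 fold change 0.82, adjusted p = 0.0472). In the RefSeq sheep annotation COL5A2 and COL3A1 are direct neighbours on chromosome 2.

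COL5A3, the third and least widespread type V chain, ranged over 69.7 to 146 CPM in autograft, 53.3 to 126 CPM in aortic and 53.9 to 93.9 CPM in pulmonary sinus, and did not pass the test in any comparison. Its log2 fold change was 0.24 ± 0.32 over pulmonary and 0.16 ± 0.32 over aortic sinus (adjusted p = 0.652 and 0.804, edgeR). Animal D6 had the lowest COL5A3 in both of its sinuses, with 53.3 CPM in the aortic and 53.9 CPM in the pulmonary sinus. Among the autografts, replicate 1 had the lowest COL5A3 and the highest COL5A1.

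COL11A1, a chain best known from cartilage, was the fibrillar collagen gene with the greatest fold change of the 9. It had 15.0, 17.8 and 17.4 CPM in autograft sinus (266, 306 and 307 counts), against 3.75, 2.600, 0.115 and 0.107 CPM in aortic sinus (74, 52, 2 and 2 counts) and 0.904, 0.628, 1.69 and 0.343 CPM in pulmonary sinus (16, 11, 36 and 6 counts). The autografts were even among themselves, and all native libraries lay far below them. Within the aortic sinus, animals D3 and D4 had 74 and 52 counts and animals D5 and D6 had 2 each. Its log2 fold change was 4.20 ± 0.94 over pulmonary sinus (adjusted p = 0.0218, edgeR) and 3.33 ± 0.89 over aortic sinus (adjusted p = 0.0753). The call over pulmonary sinus ended without autograft replicate 2 (adjusted p = 0.0567), pulmonary replicate 2 (0.0633) or pulmonary replicate 4 (0.0502). Over aortic sinus the gene was called by DESeq2 (adjusted p = 0.00458), which called 9.83% of all genes there, and by limma-voom (adjusted p = 0.0221), which called 2.56%. Over aortic sinus the log2 fold change was 2.94 to 4.12 with 1 library left out, the highest without aortic replicate 1. On the log2(FPKM + 1) scale, which understates changes of low genes, the difference was 1.58 over pulmonary and 1.44 over aortic sinus.

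No cartilage marker passed the test beside COL11A1. Of the 10 chondrocyte markers measured, 6 passed the filter on low counts and none was called in any comparison, and the list summed to 65.6 to 121 CPM in autograft, 50.2 to 101 CPM in aortic and 57.1 to 66.8 CPM in pulmonary sinus. The median log2 fold change of the 6 was 1.32 over pulmonary and 0.86 over aortic sinus. In the autografts MATN1 had 0 to 2 counts and COL10A1 had 0, while some other markers of the list were well counted. CHAD had 251 to 610 counts in autograft, 31 to 706 in aortic and 41 to 93 in pulmonary sinus. In the same order SOX9 had 210 to 621, 95 to 396 and 145 to 363 counts. ACAN had 50 to 260, 34 to 216 and 29 to 143 counts, and HAPLN1 had 480 to 1080, 505 to 841 and 487 to 948 counts. COL2A1, the main cartilage fibril chain, chosen after its values were seen, had 0 to 2 counts in the autografts, 2 to 27 counts in aortic sinus and 1 to 5 counts in pulmonary sinus. Of the osteoblast markers tested, 2 of 6 rose over pulmonary sinus, the osteopontin gene SPP1 and PHEX, an endopeptidase gene of mineralising tissue. PHEX, the single one of the 6 that rose over aortic sinus (log2 fold change 2.87 ± 0.56, adjusted p = 0.0341, edgeR), had 6.02 ± 2.19 CPM in autograft (SD, n = 3), 0.814 ± 0.486 CPM in aortic and 0.845 ± 0.487 CPM in pulmonary sinus (SD, n = 4 each). With 1 library left out, the PHEX call over aortic sinus held in 5 of 11 fits, and without animal D3 it ended (adjusted p = 0.0558, edgeR). Over pulmonary sinus PHEX held in 10 of those 11 fits and SPP1 in 3. The median log2 fold change of the osteoblast list was 1.60 over pulmonary and 1.01 over aortic sinus. Over all genes tested, 6.05% rose over pulmonary and 0.948% over aortic sinus. Their part in the COL11A1 result was not tested.

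COL24A1, described in developing bone of the mouse, had few counts in every library. It had 83, 53 and 49 counts in the autografts (4.67, 3.09 and 2.78 CPM), against 13, 32, 5 and 0 counts in aortic sinus (0.660, 1.60, 0.287 and 0 CPM) and 22, 28, 19 and 0 counts in pulmonary sinus (1.24, 1.60, 0.890 and 0 CPM). Every autograft was above every native library. Both libraries at 0 were from animal D6, where a count of 0 allows up to 0.161 CPM in the aortic and 0.171 CPM in the pulmonary sinus (3 counts per library). The log2 fold change was 1.91 ± 1.02 over pulmonary sinus (adjusted p = 0.229, edgeR) and 2.44 ± 1.04 over aortic sinus (adjusted p = 0.191). Neither passed, and the libraries of each native tissue spread from 0 to 1.60 CPM. Over aortic sinus the value was 2.03 to 3.45 with 1 library left out, the highest without aortic replicate 2. The gene was called over pulmonary sinus in deposited FPKM + 1 (difference of 0.34 on the log2(FPKM + 1) scale, adjusted p = 0.0495, limma).

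COL27A1, a chain of cartilage and other connective tissue in the mouse, was lower in the autografts, where the other chains were higher or overlapped. It had 6.75, 10.0 and 10.9 CPM in autograft sinus, against 25.8, 15.6, 33.9 and 19.2 CPM in aortic sinus and 13.7, 17.2, 41.4 and 13.9 CPM in pulmonary sinus. All autografts lay below all native libraries, and animal D5 had the highest value in both of its sinuses. The log2 fold change was -1.23 ± 0.42 over pulmonary sinus (adjusted p = 0.0774, edgeR) and -1.36 ± 0.42 over aortic sinus (adjusted p = 0.101), so the gene did not pass. It was called over pulmonary sinus without pulmonary replicate 1 (log2 fold change -1.41, adjusted p = 0.0438) and by DESeq2 over both native tissues (adjusted p = 0.0209 over pulmonary and 0.0187 over aortic sinus), which called 20.1% and 9.83% of all genes in these comparisons. Without pulmonary replicate 3, the highest library, the log2 fold change over pulmonary sinus was -0.71 (adjusted p = 0.177).

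**Figure D2:**
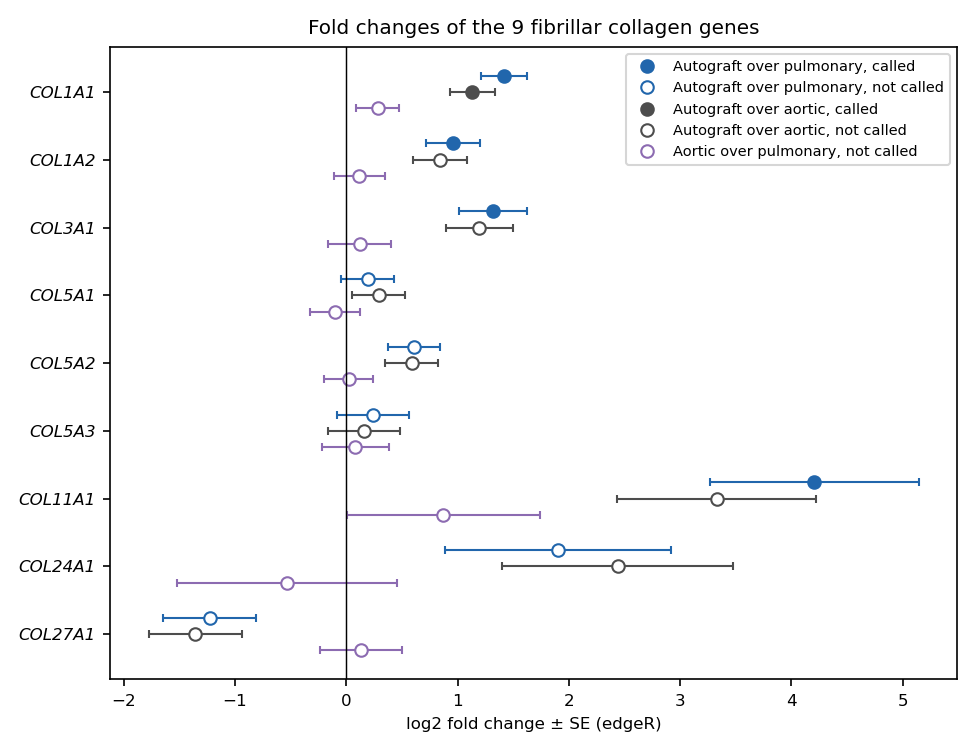
Log2 fold change ± SE of the 9 genes from the edgeR fit, for autograft over pulmonary, autograft over aortic and aortic over pulmonary sinus; filled points passed an adjusted p of 0.05 and open points did not. COL1A1 passed in both autograft comparisons, COL1A2, COL3A1 and COL11A1 passed over pulmonary sinus, and COL27A1 was the single gene with a negative value in both.

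Against aortic sinus, the native tissue that already carries systemic pressure, 1 of the 9 genes rose (COL1A1) and none fell, where 0.948% of all genes tested rose and 1.43% fell (2.38% in either direction). The median log2 fold change of the 9 genes was 0.84, against 0.0018 over all genes. All autografts lay above all aortic libraries for 6 genes (COL1A1, COL1A2, COL3A1, COL5A2, COL11A1, COL24A1) and below them for COL27A1, against 9.77% of all genes higher and 10.8% lower. Over pulmonary sinus this held for 5 genes (the same without COL5A2) and for COL27A1, against 10.9% and 11.2% of all genes. Both comparisons share the autograft libraries, so they are not independent. Whether the 2 differences from native tissue differ is the comparison of aortic with pulmonary sinus.

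Aortic and pulmonary sinus did not differ detectably in any of the 9 genes. None was called, as for all genes (0.0% of 14979, with 306 genes or 2.04% at an unadjusted p under 0.05, none of them among the 9), and DESeq2 and limma-voom called 0 as well. Log2 fold changes of aortic over pulmonary sinus lay between -0.53 (COL24A1) and 0.87 (COL11A1), with a median of 0.12, and the libraries of the 2 tissues overlapped for every one of the 9 genes (1.42% of all genes did not overlap). For the major chains the differences were 0.28 ± 0.19 (COL1A1), 0.12 ± 0.23 (COL1A2) and 0.12 ± 0.28 (COL3A1) on the log2 scale (SE). With animal as a replicate block in the native libraries, 0 genes were called too.

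The proportions of the chains were then compared within libraries, where a ratio of counts does not depend on library scaling. For each of 6 ratios the mean log2 ratio was compared between groups by a two-sided exact permutation test over libraries, giving 18 tests. The smallest p that these group sizes allow is 0.0286, and no ratio passed after Benjamini-Hochberg adjustment (lowest adjusted p = 0.206). With 18 tests, a ratio at this floor passes only if most of the other tests lie there too. The adjustment could thus hardly have been passed, and the adjusted values do not decide whether a ratio differed. A ratio of counts carries the lengths of both genes, so its value is compared between groups and not read as a ratio of molecules.

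The ratio of COL1A1 to COL1A2 was 0.697, 0.928 and 0.707 in autograft, 0.619, 0.686, 0.636 and 0.548 in aortic, and 0.517, 0.607, 0.679 and 0.497 in pulmonary sinus. All autografts were above all native libraries. The difference in log2 ratio was 0.43 to pulmonary and 0.31 to aortic sinus (exact permutation p = 0.0571 for each, adjusted p = 0.206). COL3A1 relative to COL1A1 averaged 2.07 ± 0.536 in autograft (SD, n = 3), 2.07 ± 0.323 in aortic and 2.22 ± 0.456 in pulmonary sinus (SD, n = 4 each), with overlapping libraries (exact permutation p = 0.943 to aortic and 0.743 to pulmonary sinus). That ratio varied within groups: autograft replicate 1 had 2.69, while the other autografts had 1.71 and 1.83.

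COL5A1 relative to COL1A1 was 0.0620, 0.0440 and 0.0426 in autograft, 0.0820, 0.0598, 0.115 and 0.122 in aortic, and 0.0963, 0.115, 0.135 and 0.127 in pulmonary sinus. All autografts lay below all pulmonary libraries, and aortic replicate 2 lay inside the autograft range. The difference in log2 ratio was -1.27 to pulmonary (exact permutation p = 0.0286, the smallest possible, adjusted p = 0.206) and -0.90 to aortic sinus (exact permutation p = 0.0857). COL5A1 thus took 1.06% ± 0.102 of the reads of the 9 genes in autograft (SD, n = 3), against 1.82% ± 0.428 in aortic and 2.20% ± 0.527 in pulmonary sinus (SD, n = 4 each).

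The ratio of the type V chains COL5A1 and COL5A2 was 0.258 ± 0.0356 in autograft (SD, n = 3), 0.324 ± 0.0603 in aortic and 0.362 ± 0.0666 in pulmonary sinus (SD, n = 4 each). The autografts, at 0.219 to 0.289, lay below all pulmonary libraries, at 0.306 to 0.446 (difference in log2 ratio -0.48, exact permutation p = 0.0571), and overlapped the aortic ones (-0.32, exact permutation p = 0.114). In the authors' deposited FPKM the difference to aortic sinus was 0.067, with the opposite sign. COL5A3 relative to COL5A1 spanned 0.222 to 0.729 in autograft, 0.274 to 0.826 in aortic and 0.223 to 0.656 in pulmonary sinus, with no difference beyond that spread (exact permutation p = 0.8286 to aortic and 1.0 to pulmonary sinus).

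COL11A1 relative to COL5A1, its partner in mixed type V and XI fibrils, had the greatest difference. It was 0.0478, 0.0894 and 0.110 in autograft, 0.0221, 0.0172, 0.000671 and 0.000689 in aortic, and 0.00501, 0.00473, 0.00788 and 0.00154 in pulmonary sinus. All autografts were above all native libraries, with a difference in log2 ratio of 4.24 to pulmonary (exact permutation p = 0.0286) and 4.42 to aortic sinus (exact permutation p = 0.0857, adjusted p = 0.220). No ratio separated aortic from pulmonary sinus (lowest exact permutation p = 0.229, for COL5A1 relative to COL1A1). Paired by animal, that ratio was lower in aortic than in pulmonary sinus in 4 of 4 animals (mean paired log2 difference -0.37, exact sign-flip p = 0.125, the smallest that 4 animals allow).

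**Figure D3:**
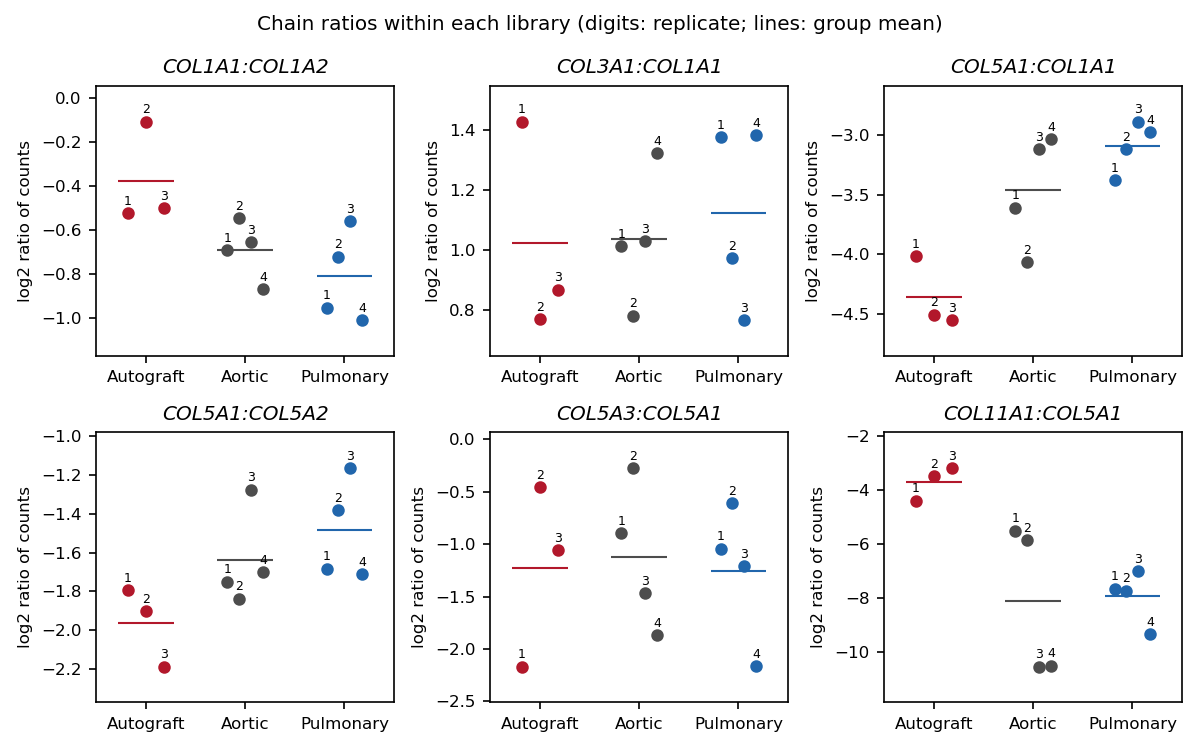
Log2 ratio of the counts of 2 chains within each library for 6 pairs of genes, in autograft (n = 3), aortic (n = 4) and pulmonary sinus (n = 4); points are libraries, digits replicate numbers and lines group means. COL1A1:COL1A2 and COL11A1:COL5A1 are higher in all autografts than in all native libraries, COL5A1:COL1A1 is lower than in all pulmonary libraries, and COL3A1:COL1A1 and COL5A3:COL5A1 overlap.

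FPKM, a unit corrected for gene length, came from the authors' deposited values. These also carry the step that evened values between libraries, so they do not differ from CPM by gene length alone. They serve in this paragraph to order the genes within a tissue, and elsewhere as an alternative scale. In run 1 the median FPKM in autograft was 1623 for COL1A1, 829 for COL3A1, 659 for COL1A2, 85.3 for COL5A2, 67.1 for COL5A1 and 24.3 for COL5A3. In CPM, which is not corrected for gene length, the order of the major chains differed. Autograft means were 9369 CPM for COL3A1, 5797 CPM for COL1A2 and 4435 CPM for COL1A1. In run 1 autograft replicate 1 had 16.9 counts per FPKM for COL1A1 and 53.6 for COL3A1. Whether gene length or the evening step gave the different order was not tested. The low chains followed with median FPKM of 2.56 for COL27A1, 2.22 for COL11A1 and 0.470 for COL24A1. COL27A1 and COL11A1 overlapped in FPKM across autografts, as did COL5A2 and COL5A1, so their order is not settled. COL1A2 likewise overlapped COL1A1 and COL3A1. In autograft replicate 1 it had 1655 in run 1, against 1623 for COL1A1 and 1390 for COL3A1. In autograft replicate 2 it was below COL3A1 (659 against 829). In the native tissues of run 1 the median FPKM of COL1A2 was 659 in aortic and 602 in pulmonary sinus, that of COL1A1 was 533 in aortic and 553 in pulmonary sinus, and that of COL3A1 was 358 in aortic and 366 in pulmonary sinus. In run 2 the pulmonary medians were 514 for COL1A1 and 503 for COL1A2, so the order of these 2 chains is not settled there. Nor is it settled in aortic sinus, where replicate 2 had 968 for COL1A1 and 659 for COL1A2 in run 1. COL11A1 had a median FPKM of 0.274 in aortic and 0.125 in pulmonary sinus, and COL27A1 had 5.51 in aortic and 4.22 in pulmonary sinus. The highest FPKM values are shared between libraries, with COL1A2 listed at exactly 659 in 8 of 11 libraries and COL1A1 at 1623 in all 3 autografts. FPKM differences between libraries were therefore not read as results for these chains. The order of COL1A1 above COL3A1 in the autografts rests on such a shared value and is the reverse of that in CPM, so it is not settled.

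Markers of several cell types differed in the same comparisons as the major chains, and fewer cells of a type cannot be told apart from less RNA per cell in bulk tissue. Over all genes tested, 6.05% rose and 5.29% fell over pulmonary sinus, and 0.948% rose and 1.43% fell over aortic sinus. The 12 fibroblast markers summed to 14347, 11527 and 15099 CPM in autograft, 6893, 6648, 5752 and 7700 CPM in aortic and 9416, 2946, 4273 and 7465 CPM in pulmonary sinus. Of these, 3 of 12 rose over pulmonary sinus (DCN, SFRP2 and APOD) and 2 rose over aortic sinus (DCN and SFRP2), and none was at 0 in any library. The pulmonary replicates 1 and 4 with the higher COL1A2 and COL3A1 were also those with the higher fibroblast sum. The 9 smooth muscle markers summed to 29501 to 55112 CPM in autograft, 57224 to 79218 CPM in aortic and 59710 to 94445 CPM in pulmonary sinus, and 3 of 9 fell over pulmonary sinus (MYH11, SMTN, SYNPO2) and 1 over aortic sinus (SYNPO2). The part of these cell types in the collagen results was not tested.

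Leukocyte markers differed too. The 10 T and NK cell markers summed to 43.4 to 57.1 CPM in autograft, 7.05 to 11.95 CPM in aortic and 2.85 to 8.81 CPM in pulmonary sinus, and 8 of 10 rose over pulmonary and 5 of 10 over aortic sinus. The 10 macrophage markers summed to 1388, 980.1 and 209 CPM in the autografts, 155 to 475 CPM in aortic and 76.4 to 354 CPM in pulmonary sinus, and 4 of 10 rose over pulmonary sinus. Endothelial markers spanned 186 to 1699 CPM in autograft, 272 to 641 CPM in aortic and 133 to 456 CPM in pulmonary sinus, with 2 of 9 higher over pulmonary sinus (TEK and NOS3), and autograft replicate 1 had the lowest sum of the autografts. Of the adipocyte markers, LPL rose and PLIN4 fell over pulmonary sinus, and of 8 cardiac muscle markers MYH7 fell. Over aortic sinus no macrophage, endothelial, adipocyte or cardiac marker was called. With each of the 11 libraries left out in turn, 10 of the 25 cell type marker calls over pulmonary sinus held in every fit. Over aortic sinus 2 of the 9 did (IL2RB and CTSW). Without animal D3 all 25 held over pulmonary sinus and 3 of the 9 over aortic sinus. Over aortic sinus DCN and SFRP2 were each called in 2 of the 11 fits, and over pulmonary sinus SMTN was called in 1. The part of any of these cells in the collagen results was not tested.

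**Figure D4:**
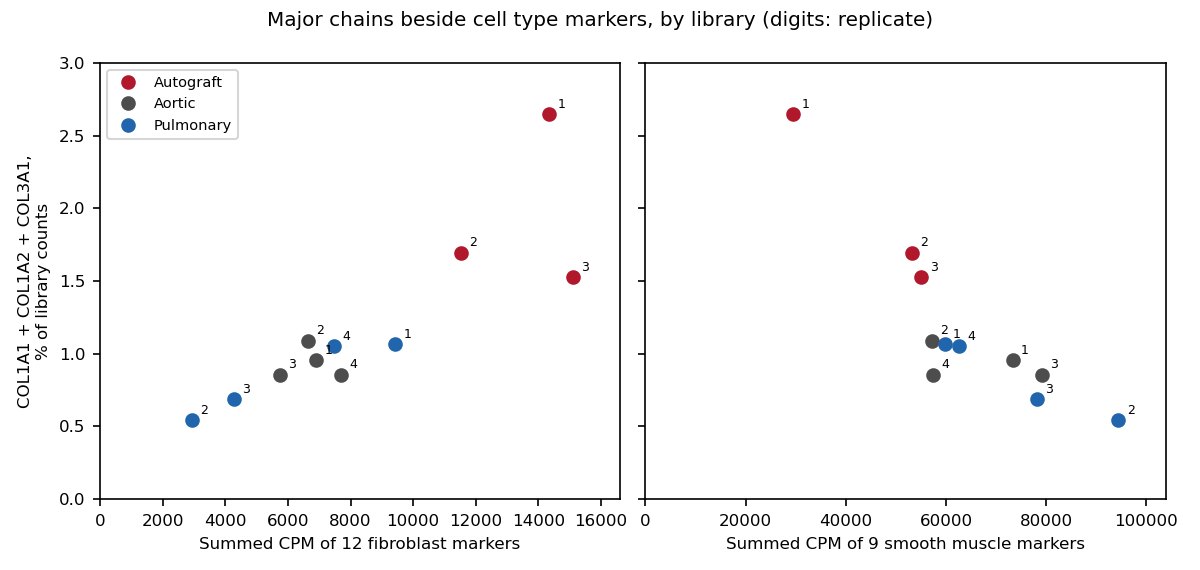
Share of a library's counts in COL1A1, COL1A2 and COL3A1 together (percent, vertical axis) against the summed CPM of the 12 fibroblast markers (left) and the 9 smooth muscle markers (right); each point is a library, coloured by tissue and labelled with its replicate. The 3 autografts have the highest shares, the highest fibroblast sums and the lowest smooth muscle sums, and pulmonary replicate 2 has the lowest share and the highest smooth muscle sum.

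The genes that make, trim and bind the fibril were described from lists. Over all genes tested, 6.05% rose and 5.29% fell over pulmonary sinus, with a median log2 fold change of 0.0013. Over aortic sinus 0.948% rose and 1.43% fell, with a median of 0.0018. Several of the counts below are of 1 or 2 genes and were not tested against these shares. Of 16 genes of chain hydroxylation and folding, 3 rose over pulmonary sinus and none fell, with a median log2 fold change of 0.29. P4HA3, a catalytic subunit of collagen prolyl 4-hydroxylase, had 27.6 ± 12.8 CPM in autograft (SD, n = 3), 7.86 ± 1.67 CPM in aortic and 4.87 ± 1.33 CPM in pulmonary sinus (SD, n = 4 each). It rose over both native tissues (log2 fold change 2.5 ± 0.34 and adjusted p = 0.00565 over pulmonary, 1.81 ± 0.33 and adjusted p = 0.0281 over aortic sinus, edgeR). The other genes that rose over pulmonary sinus were the folding enzymes PPIB (0.59 ± 0.15) and FKBP10 (0.57 ± 0.14). Of 10 genes of procollagen export, CREB3L1, a transcription factor of collagen-secreting cells, rose over pulmonary sinus (1.08 ± 0.23) and the list's median was 0.072.

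Calls among the genes of propeptide cleavage went in both directions. Of 8 genes tested, 2 rose and 1 fell over pulmonary sinus, with a median of 1.03, and none was called over aortic sinus. PCOLCE, which enhances removal of the C-terminal propeptide, had 630 ± 90.2 CPM in autograft (SD, n = 3) and 271 ± 128 CPM in pulmonary sinus (SD, n = 4). Of the enzymes that remove the N-terminal propeptide, ADAMTS3 rose (log2 fold change 1.23 ± 0.35) and ADAMTS14 fell (-1.78 ± 0.50). Both were low, with autograft and pulmonary means of 9.84 and 4.18 CPM for ADAMTS3 and 1.18 and 4.05 CPM for ADAMTS14. ADAMTS2, the highest of these enzymes, had 179 CPM in autograft and 85.4 CPM in pulmonary sinus. It just missed the threshold (log2 fold change 1.07 ± 0.31, adjusted p = 0.0507, edgeR). None of the 5 lysyl oxidases was called over pulmonary sinus (median 0.23), while LOXL3 fell over aortic sinus (-0.60 ± 0.14, adjusted p = 0.0472, edgeR).

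Among molecules on the fibril surface, decorin (DCN) and fibromodulin (FMOD), small proteoglycans that bind fibrils, rose over both native tissues, 2 of 10 genes tested in that list. DCN, which is also in the fibroblast list, had 5101 ± 913 CPM in autograft (SD, n = 3), 1993 ± 356 CPM in aortic and 1937 ± 827 CPM in pulmonary sinus (SD, n = 4 each). FMOD had 2274 ± 478 CPM in autograft, 1332 ± 129 CPM in aortic and 1196 ± 96.1 CPM in pulmonary sinus (SD). COL21A1, a fibril-associated collagen that does not form fibrils itself, fell over both (log2 fold change -1.34 ± 0.22 over pulmonary and -1.10 ± 0.22 over aortic sinus), the single called gene of the 8 tested in its list. Of 8 collagen receptor genes, the integrin subunit ITGA2 rose over both (1.95 ± 0.45 over pulmonary and 2.19 ± 0.45 over aortic sinus).

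Of 8 genes of collagen degradation tested, 2 rose over pulmonary sinus and 1 over aortic sinus, and none fell. MMP2, a gelatinase of denatured collagen, had 584 ± 110.4 CPM in autograft (SD, n = 3), 156 ± 28.9 CPM in aortic and 138 ± 42.7 CPM in pulmonary sinus (SD, n = 4 each), a log2 fold change of 2.08 ± 0.26 over pulmonary (adjusted p = 0.00420, edgeR) and 1.90 ± 0.26 over aortic sinus (adjusted p = 0.0109). CTSK, the collagen-cleaving cathepsin K, rose over pulmonary sinus (1.20 ± 0.27). With each of the 11 libraries left out in turn, 4 of the 13 calls in these lists over pulmonary sinus held in every fit (P4HA3, COL21A1, FMOD and MMP2), as did 1 of the 7 over aortic sinus (MMP2). Without animal D3, 12 of the 13 calls over pulmonary sinus held (ADAMTS14 did not, adjusted p = 0.0656) and 2 of the 7 over aortic sinus (MMP2 and LOXL3). ADAMTS3, ADAMTS14 and, over aortic sinus, DCN and LOXL3 were called in 2 of the 11 fits.

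MMP2 was also among the 5 genes whose log2 CPM was most like that of COL1A1 over the 11 libraries, with Pearson r of 0.975 for NT5DC2, 0.968 for ITGAD, 0.965 for CD96, 0.962 for TRAF3IP3 and 0.958 for MMP2. ITGAD and CD96 are leukocyte genes of low level here, at most 1.28 and 2.02 CPM in any library. For COL11A1 the most alike genes were PTPRCAP (0.921), CHODL (0.918), SH2D3A (0.918), CD244 (0.914) and ALKBH1 (0.914). These likenesses are descriptions over libraries that share 3 tissue groups, picked as the highest of all genes tested.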

How the data were processed

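The 22 sample entries are 11 libraries sequenced in 2 runs each. Per the labels' protocols, TRIzol extraction was followed by TruSeq library preparation. Tools named in the submitters' processing notes are featureCounts 1.5.3, STAR 2.5.2b, Bowtie2 2.3.3.1 and cutadapt. Build, annotation and strand were not given in the sources used here: overlapping and antisense genes could not be separated. The authors deposited raw counts per gene, and the authors' deposited FPKM tables hold values that were evened between libraries by a step not given in the sources used here. RefSeq (ARS-UI_Ramb_v3.0) matched 9 of 9 collagen genes and was used for names and neighbours.

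Per gene, chi-square between runs was 1.36 to 1.47 within a library and 25.4 to 88.6 for different animals of a group, and counts of runs were added. A row without a gene name, at most 0.000522% of counts, was left out. All 11 libraries entered 1 edgeR 4.0.16 quasi-likelihood fit (R 4.3.3, filterByExpr, TMM, no block). A gene was called at a Benjamini-Hochberg adjusted p under 0.05 over 14979 genes. The fit was also run on simulated counts with 200 changed genes. These were drawn independently for each library, so shifts of whole libraries and libraries sharing an animal were not covered. Alternatives were other scaling, no filter, DESeq2 1.42.0, limma 3.58.1 on counts and on log2(FPKM + 1) or log2(FPKM + 0.1), single runs, blocks by animal, and leaving out libraries. Ratios had a pseudocount of 0.5 counts. Replicate numbers of native libraries are animals, so aortic and pulmonary libraries of an animal are pairs, per the labels. Deviations of same-animal libraries correlated at -0.18 (D3), -0.13 (D4), 0.43 (D5) and 0.45 (D6), while aortic D4 with pulmonary D3 gave 0.40 and aortic D3 with pulmonary D4 gave 0.26. Libraries of D3 and D4 thus resembled each other's animal more than their own; whether these labels are crossed was not tested, and statements by animal follow the labels. All members were named, with the 5 genes most like COL1A1 and COL11A1 and the called genes of the lists. Most called T and NK cell genes and the called macrophage genes were counted without being named. Some genes that were not called were named to show the range of a list. The collagen genes and all lists were chosen with earlier results of these data known.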

Additional observations from a re-analysis of the deposited data

Results flagged for a closer look

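COL5A3 in pulmonary sinus replicate 4 (animal D6) was far below the other pulmonary libraries. Its log2 CPM was 5.75 (53.9 CPM), and the gap to the nearest library was 0.930 of the group's range, above the 95% Dixon limit for 4 samples. The other pulmonary libraries had 90.3, 91.1 and 93.9 CPM. The aortic sinus of the same animal had 53.3 CPM, the lowest of its group. In all, 30 groups of values were tested, and chance flags about 5% of such groups.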

How the results depend on the processing

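Of the 4 fibrillar collagen genes called over pulmonary sinus, 2 were called with only these 2 groups in the fit and 2 with deposited FPKM limited to a mean of at least 1, and 1 to 5 with 1 library left out (1 without autograft replicate 2 or pulmonary replicate 2, 2 without autograft replicate 1 or pulmonary replicate 3, and 5 without pulmonary replicate 1). COL1A1 stayed called in all of these. COL11A1 was not in the fit with a mean FPKM of at least 1, so its absence there is not a lost call. COL1A2 was not called in the 3 FPKM fits (lowest adjusted p = 0.0861, limma). Nor was COL1A1 over aortic sinus called in these (adjusted p = 0.0529, 0.0505 and 0.0513, limma), while COL11A1 over aortic sinus was called with FPKM + 1 (0.00409) and FPKM + 0.1 (0.0363). COL1A1 and COL1A2 have FPKM values shared between libraries, so the FPKM fits say little about these 2 chains. COL3A1 and COL5A2 have shared values too, each with 1 value common to 3 libraries in run 1, so the same caution holds for them. The part of the shared values in the lost calls was not tested. Over aortic sinus, where 1 was called, 0 were called without animal D3 and with FPKM of at least 1, 2 by limma-voom with or without a random replicate block, 5 by DESeq2 and 0 to 1 with 1 library left out. Over all genes, 1699 were called over pulmonary sinus, 479 with the 2 groups alone, 2997 by DESeq2 and 452 to 2753 with 1 library left out. Over aortic sinus 356 were called, 110 without animal D3, 1469 by DESeq2 and 25 to 576 with 1 library left out. With the replicate block by animal in the native libraries, and with the random replicate block, 0 genes were called between aortic and pulmonary sinus, and the blocks changed no other call of a collagen gene than COL11A1 over aortic sinus (log2 fold change 4.58, adjusted p = 0.0236, also called by limma-voom without it).

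The directions that turned were of values that were not called. With 1 library left out, and with both autograft replicate 1 and pulmonary replicate 1 left out, the log2 fold change over pulmonary sinus was -0.14 to 0.39 for COL5A1 (-0.18 without both) and -0.18 to 0.45 for COL5A3. Over aortic sinus it was -0.025 to 0.49 for COL5A1 (-0.040 without both) and -0.24 to 0.40 for COL5A3. For aortic over pulmonary sinus it was -0.033 to 0.26 for COL1A2, -0.048 to 0.28 for COL3A1, -0.23 to 0.018 for COL5A1, -0.14 to 0.24 for COL5A2, -0.17 to 0.26 for COL5A3 and -0.094 to 0.66 for COL27A1 (-0.078 without animal D3, -0.047 without both). For COL11A1, at 0.87 in edgeR, it was -0.22 by limma-voom and -0.23 with the random replicate block. The log2 ratio of COL5A1 to COL5A2 over aortic sinus was -0.32 in counts and 0.067 in FPKM. The cause was not tested. The same alternatives were run for the called genes of the lists, a choice made after seeing the data. With 3 or 4 animals a group the ratio tests could not go below 0.0286, and COL24A1 and native COL11A1 rest on at most 83 counts a library.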

Other observations

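COL11A2, the remaining type XI chain, chosen after its values were seen, did not pass the test. It had 64 to 97 counts in the autografts (4.73 ± 0.912 CPM, SD, n = 3), 84 to 261 counts in aortic sinus (7.93 ± 4.26 CPM) and 68 to 203 counts in pulmonary sinus (7.44 ± 3.65 CPM, SD, n = 4 each). Its log2 fold change was -0.65 ± 0.46 over pulmonary (adjusted p = 0.360, edgeR) and -0.74 ± 0.46 over aortic sinus (adjusted p = 0.358).

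Counts behind 1 FPKM differed between libraries by gene. In run 1 the highest library had 1.93 times the counts per FPKM of the lowest for COL1A1, 1.86 times for COL5A1 and 1.87 times for COL5A3, but 1.16 times for COL5A2.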
